A study of Mus musculus with 32 samples.

Results

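RNA recovered with proteins labelled near PSD95 was compared with RNA of the same lysates in resting primary mouse cortical neurons. The comparison holds 8 of the 32 libraries of the series, 4 titled REST_PSD95_pd (pulldown) and 4 titled REST_PSD95_in (input), which were chosen by their titles and paired by the replicate number in them. Depolarized libraries were not averaged into it.

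PSD95 is a scaffold protein of the postsynaptic density, the protein layer beneath the membrane of excitatory synapses that holds receptors and signalling enzymes in place. TurboID is a biotin ligase that attaches biotin to proteins close to it, so an enzyme held on the postsynaptic side marks proteins of dendrites and spines. After UV crosslinking, RNAs bound by those proteins come down with them on streptavidin beads. Dendrites are known to hold mRNAs that are translated on site, and a transcript's place in the cell is often set by proteins that bind its untranslated regions.

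In both groups the neurons expressed TurboID-PSD95 from a doxycycline-inducible lentivirus and received cycloheximide, a blocker of translation elongation, for 2 min and biotin for 30 min. Crosslinking used 1 UV pulse of 400 mJ/cm2 and another of 200 mJ/cm2. Inputs were aliquots of 15% taken before the beads were added, and libraries were made from about 100 ng of RNA. For comparison, the same contrast was taken from depolarized TurboID-PSD95 neurons (tetrodotoxin and DL-AP5 for 2 h, 55 mM KCl for 1 h, then 30 min of rest) and from resting neurons with Pan-TurboID, which lacks a localization signal and labels the whole neuron. TurboID-PSD95 is TurboID linked to parts of the PSD95 transcript, untranslated regions included, expressed beside the endogenous gene. No pulldown without biotin or without TurboID was analysed here. These are bulk libraries, in which more of a transcript near the bait and better recovery of it on the beads cannot be told apart.

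Each library gave estimated read counts for 51884 transcript models under UCSC identifiers. None of these matched the gene name tables used here (0 matches), so neuronal and glial markers could not be checked, and transcripts are described by identifier, length in nucleotides (nt) and level. Levels are given as CPM, counts relative to library size, scaled with TMM factors, which set libraries to a common level on the bulk of transcripts.

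The pulldowns held 12469787, 6633414, 2949123 and 6538826 counts for replicates 1 to 4, against 10182261, 6609876, 4439271 and 9301845 in their inputs. One transcript, uc009sgd.1 (3881 nt), took 6.45%, 4.61%, 73.9% and 46.6% of the pulldown reads and 8.77%, 27.4%, 28.0% and 11.2% of the input reads. It was thus a smaller share of the pulldown in pairs 1 and 2 and a larger one in pairs 3 and 4. In the pulldown of replicate 3 only 632209 counts lay outside the 3 most abundant transcripts, against 3229641 to 11397495 in the other pulldowns and 2671072 to 8850570 in the inputs. The descriptions of the libraries of replicate 2 name the opposite state from their titles, and the titles were used.

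Of 34696 transcripts tested, 1091 were higher in the pulldown (3.14% of those tested) and 1424 were lower (4.10%) at an adjusted p of 0.05 by limma. With RLE size factors the split turned to 1583 higher and 983 lower. All transcripts had a median log2 difference of 0.32 under that scaling, against 0.15 with TMM factors. DESeq2 also gave more higher (2003) than lower (1265). At a mean CPM of at least 5 the split was 1343 higher and 1284 lower, and without the replicate block 371 and 363. The edgeR test leaned further to lower, with 324 higher and 762 lower. Transcripts called in the same direction by limma, edgeR and DESeq2 and with RLE factors numbered 314 higher and 635 lower. Leaving out replicate 1 removed more calls than leaving out any other replicate, with 96 higher and 191 lower without it, and 61 higher and 153 lower transcripts were called in the full set and without each replicate in turn. The count was 734 without the replicate block and 1609 with a block for each lysate. Without the pulldown of replicate 3, and the libraries of other groups in which uc009sgd.1 also exceeded 50% of reads, it was 1564.

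**Figure D1:**
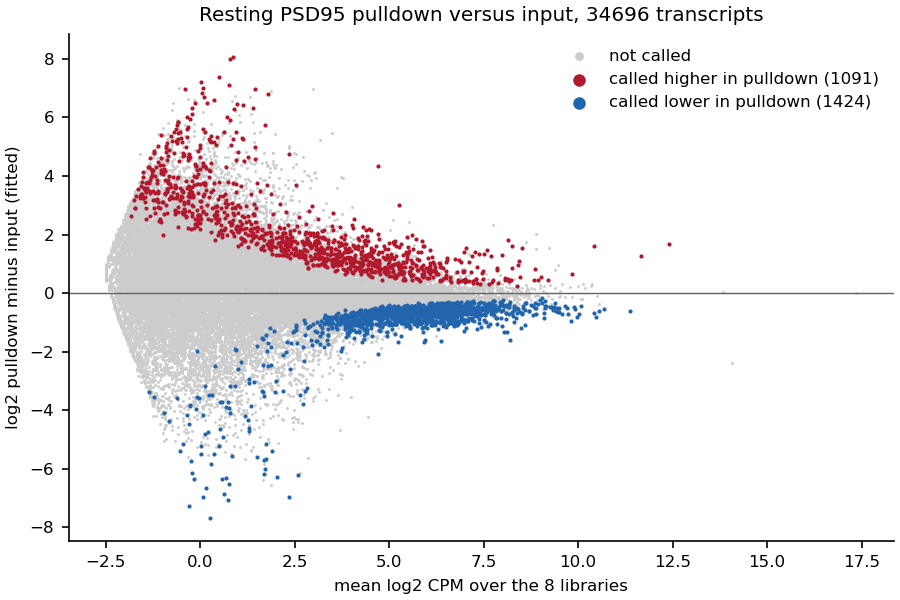
Fitted log2 difference, pulldown minus input, of each of the 34696 transcripts tested (vertical axis) against its mean log2 CPM over the 8 resting PSD95 libraries (horizontal axis). Red points are the 1091 transcripts called higher in the pulldown, blue points the 1424 called lower and grey points those not called. The red points spread over a wide range of differences at low levels, and the blue points sit mostly at higher levels and closer to 0.

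The called transcripts had different profiles in the 2 directions. Those higher in the pulldown had a median log2 difference of 1.73, with 10th and 90th percentiles of 0.74 and 4.23, and 864 of the 1091 differed by at least 2-fold. Their median level was 2.76 on the log2 CPM scale and their median length 2856 nt. Those lower in the pulldown were more abundant, at a median of 5.53 on the log2 CPM scale, and their differences were smaller, with a median of -0.72 and 10th and 90th percentiles of -1.33 and -0.46. Only 295 of the 1424 differed by at least 2-fold, and their median length was 2566.5 nt, against 2806 nt for all transcripts tested. Of the 32181 transcripts not called, 12627 also differed by at least 2-fold. Small differences are harder to call at low levels, so these profiles mix size, level and power. Among the called, 94 higher transcripts had 0 counts in all 4 inputs and 19 lower ones had 0 in all 4 pulldowns. Their fitted values depend on the small offset that the fit adds to counts before the log. With these set to a floor of 3 counts per library the medians were 1.64 and -0.72, and without them the 90th percentile of the higher ones was 3.595. The plain mean of the 4 pair values had the sign of the fitted value for 2513 of the 2515 called transcripts. In 2171 of them all 4 pairs went the same way, and in 30 at most 2 pairs went the way of the fit. The pair values come from the libraries that gave the calls, so this agreement is no separate support for them.

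Across the whole table the pairs were noisy. The log2 ratios of pulldown to input in one pair correlated with those of another pair with r from 0.04 to 0.13 over the 34696 transcripts, and from 0.02 to 0.24 over the 6048 with a mean count of at least 200. These correlations run across transcripts, which are not independent replicates, and each is between different lysates.

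Among the most abundant transcripts, lower levels in the pulldown were frequent. Of the 1826 transcripts above 6 on the log2 CPM scale, 549 (30.1%) were called lower and 108 (5.91%) higher. Of the 4779 between 4 and 6, 646 (13.5%) were lower and 247 (5.17%) higher. The 12589 transcripts at or below 0 held 19 lower (0.151%) and 227 higher (1.80%). With RLE factors the most abundant group still held 431 lower (23.6%), beside 196 higher (10.7%). Calls are easier to reach at high counts, so the shares mix level and power. The pair values do not depend on a call. Transcripts with a mean count over 1000 in the 8 libraries (978 of them) had median log2 ratios of -0.17, -0.19, -0.07 and -0.03 in pairs 1 to 4, relative to every transcript averaging at least 50 counts. The 8245 transcripts with mean counts of 50 to 200 had 0.12, 0.02, 0.11 and 0.06 on the same scale. The abundant group lay below 0 in 4 of 4 pairs, with the smallest exact two-sided sign-flip permutation p that 4 pairs allow, which is 1 in 8. The group of 50 to 200 makes up most of the transcripts that set the median, so its side of 0 is not a separate result.

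The depolarized PSD95 and resting Pan comparisons had their own values of the same kind. For mean counts over 1000 the mean of the 4 pairs was -0.11 ± 0.08 (SD, n = 4) in resting PSD95, -0.33 ± 0.06 in depolarized PSD95 and -0.22 ± 0.06 in resting Pan. The cut on counts was met by 978, 1250 and 1794 transcripts in turn, so the values do not describe the same set of transcripts. No test of the difference between these values was run.

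Detection was compared at equal depth. When every library was rarefied to 632109 counts without the 3 most abundant transcripts, 11201.5, 11402.3, 11926 and 11161.8 transcripts were expected at 10 or more counts in the pulldowns, against 10239.8, 10508.3, 11355.7 and 10796.4 in the inputs. The pulldown was higher in 4 of 4 pairs, by 698 ± 280 transcripts (SD, n = 4; exact sign-flip p of 1 in 8, adjusted over 5 measures 0.312), although the groups overlap. With the 3 abundant transcripts kept, the mean difference was -107 transcripts. The share of reads in the 10 most abundant of the remaining transcripts was 4.54% ± 1.60 in the pulldowns and 3.94% ± 0.66 in the inputs (SD, n = 4 each), and was higher in 2 of 4 pairs, with a mean difference of -0.33 percentage points without replicate 3.

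Outside the 3 most abundant transcripts, short transcripts took different shares of the 2 fractions, in opposite directions on either side of 300 nt. The class of 300 to 1000 nt (1000 not included, as with the upper bound of every class) took 3.71%, 3.56%, 3.02% and 3.23% of the pulldown reads, against 4.92%, 4.85%, 4.22% and 4.53% of the input reads, leaving out the 3 most abundant transcripts. Every pulldown value lay below every input value. The pair differences were nearly constant, at -1.25 ± 0.05 percentage points (SD, n = 4). Transcripts under 300 nt, in which many small structured and noncoding RNAs fall, took 0.432%, 0.343%, 0.739% and 0.305% of the pulldown reads, against 0.291%, 0.236%, 0.0975% and 0.146% of the input reads. Here every pulldown value lay above every input value. The pulldown of replicate 3 was highest and its input lowest, so that pair had the largest gap. One of the transcripts left out, uc033jng.1 (123 nt), also falls under 300 nt. It alone took 1.17%, 0.480%, 4.28% and 3.12% of all pulldown reads, against 1.13%, 2.64%, 1.79% and 0.631% of all input reads. In pair 2 its share was larger in the input, so the separation under 300 nt holds only without it. For each class the exact permutation p was 1 in 8 over pairs and 0.0286 for 4 against 4 libraries without pairing, the smallest each design allows. Both classes together, all transcripts under 1000 nt, took 3.84% ± 0.26 of pulldown reads and 4.82% ± 0.41 of input reads (SD, n = 4 each), a difference of -0.98 ± 0.29 percentage points with an exact sign-flip p of 0.312 after adjustment over 5 measures. The split at 300 nt in reads was made after the values were seen.

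**Figure D2:**
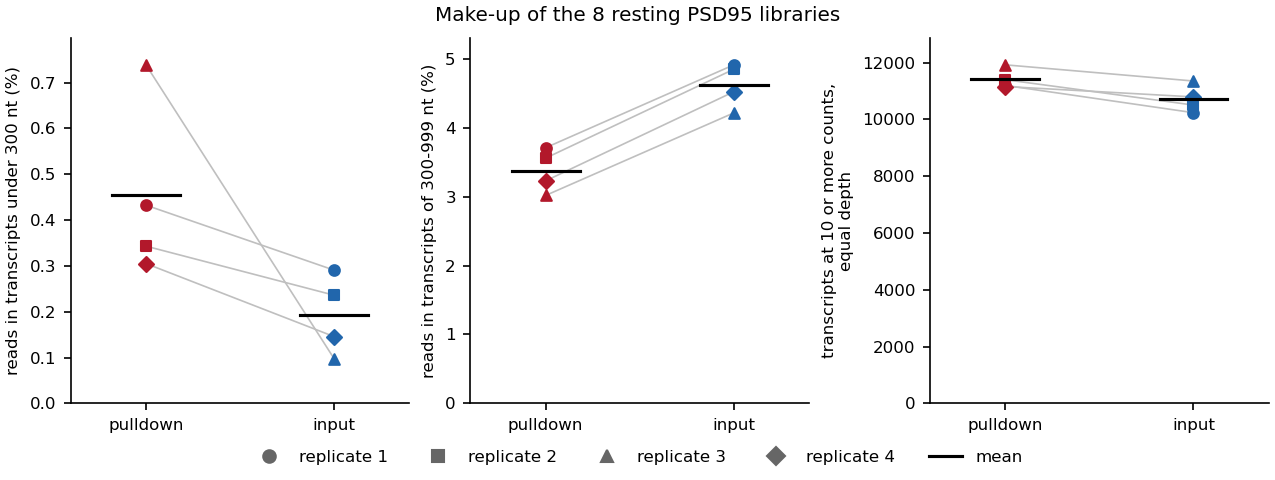
Percent of reads in transcripts under 300 nt (left), percent of reads in transcripts of 300 to 1000 nt (middle) and transcripts at 10 or more counts after rarefying to equal depth (right), in the 4 pulldown and 4 input libraries of resting TurboID-PSD95 neurons, without the 3 most abundant transcripts. Symbols mark replicates, grey lines join a pulldown to its input and black bars are group means. The pulldowns sit between 0.305% and 0.739% on the left, above all inputs, and between 3.02% and 3.71% in the middle, below all inputs.

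The same short classes stood apart when each transcript counted once. A mean count of at least 50 was reached by 14293 transcripts. The 655 of them with 300 to 1000 nt had a median log2 ratio of pulldown to input of -0.48, -0.54, -0.54 and -0.52 in pairs 1 to 4, relative to the median of all classes in that pair. The mean was -0.52 ± 0.03 (SD, n = 4). In 393 of the 655 the pulldown was lower in all 4 pairs, and in 29 it was higher in all 4. Over all lengths and levels, 1281 of the 1424 called lower and 2879 of the 32181 not called were lower in all 4 pairs. limma called 232 of the 655 lower and 14 higher. Of all 34696 transcripts tested, many of them with fewer counts, it called 4.10% lower and 3.14% higher. The class median held at each level when taken relative to the median of the transcripts of that level alone. It was -0.49 ± 0.05 for mean counts of 50 to 200, -0.51 ± 0.05 for 200 to 1000 and -0.62 ± 0.10 above 1000. It was -0.38 over the 219 transcripts whose counts were whole numbers in every library, to within 0.001 of a count. The reference there was the median of the whole-count transcripts. Over all 2476 transcripts of this length, most of them with few counts, it was -0.12, relative to all transcripts tested.

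The 36 transcripts under 300 nt ran from 61 to 294 nt, with a median of 121 nt. Their median log2 ratio was 1.29, 1.00, 2.49 and 2.08 in pairs 1 to 4 on the same relative scale, a mean of 1.72 ± 0.69 (SD, n = 4). The spread between pairs was wide, with pairs 3 and 4 highest, which are also the pairs whose pulldowns had the largest shares of uc009sgd.1. The part of that transcript in this value was not tested. In 21 of the 36 the pulldown was higher in all 4 pairs, and in 1 it was lower in all 4. limma called 20 higher and 1 lower, beside 3.14% higher and 4.10% lower of all 34696 transcripts tested. For the 12 with whole counts the mean was 2.05, and over all 252 tested transcripts under 300 nt it was 0.89. The references were the medians of the whole-count transcripts and of all transcripts tested.

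Longer classes lay near 0. The mean relative log2 ratio was -0.10 ± 0.05 for the 2313 transcripts of 1000 to 2000 nt, 0.06 ± 0.03 for the 5838 of 2000 to 4000 nt, 0.03 ± 0.02 for the 4616 of 4000 to 8000 nt and -0.05 ± 0.04 for the 835 of 8000 nt or more (SD, n = 4 each). Each of the 6 classes lay on 1 side of 0 in 4 of 4 pairs, and each had the smallest exact sign-flip p of 1 in 8, also after adjustment over the classes. The 2 classes from 2000 to 8000 nt hold most of the transcripts that set the median, so their side of 0 is not a separate result. With no minimum on counts the classes of 1000 to 2000 nt and 4000 to 8000 nt turned to 0.013 and -0.029. Over the whole-count transcripts of 8000 nt or more the value turned to 0.12. Each was relative to the median of its own set of transcripts. The median length of a read's transcript was 4077 ± 61 nt in the pulldowns and 4064 ± 59 nt in the inputs, and the share of reads in transcripts of 8000 nt or more was 14.9% ± 0.26 and 15.4% ± 0.69 (SD, n = 4 each). Both measures overlap between the groups.

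**Figure D3:**
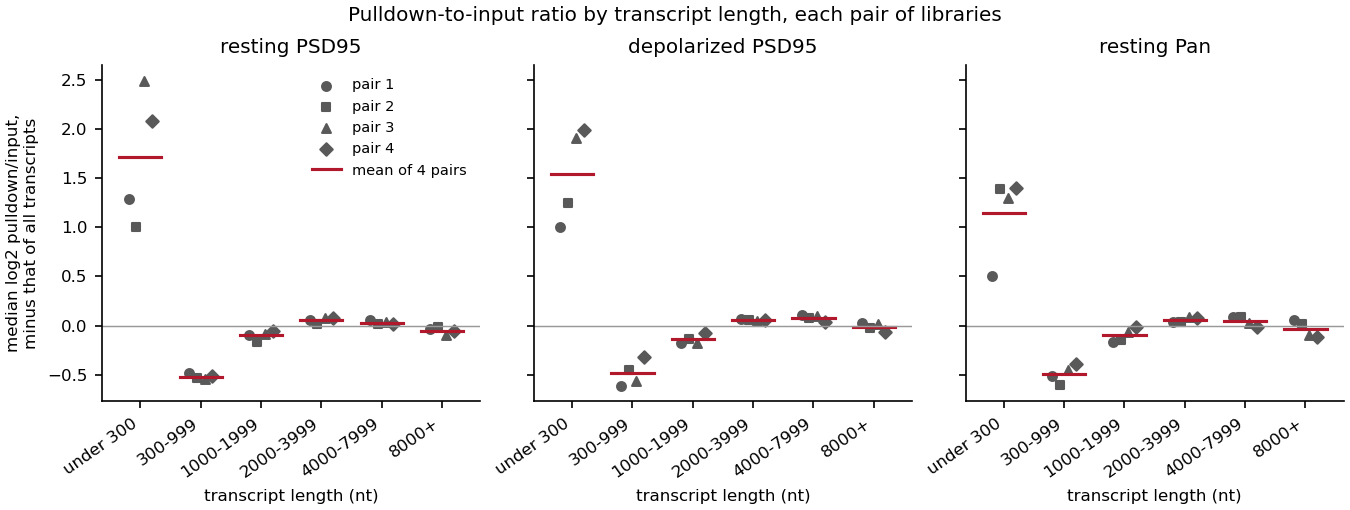
Median log2 ratio of pulldown to input in 6 classes of transcript length, minus the median of all transcripts in the same pair (vertical axis), for resting PSD95 (left), depolarized PSD95 (middle) and resting Pan (right). Symbols are the 4 pairs of libraries and red bars their means, over the 14293 transcripts averaging at least 50 counts in the resting PSD95 libraries. The class of 300 to 1000 nt lies between -0.54 and -0.48 in the resting PSD95 pairs, and the class under 300 nt between 1.00 and 2.49.

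Calls across transcripts were counted by the same classes. Of 2476 tested transcripts of 300 to 1000 nt, 241 (9.73%) were lower and 43 (1.74%) higher, beside the 4.10% and 3.14% of all transcripts tested. Of 1165 of 8000 nt or more, 100 (8.58%) were also lower and 33 (2.83%) higher. Of 252 under 300 nt, 36 (14.3%) were higher and 1 (0.397%) lower. Among transcripts above 4 on the log2 CPM scale, 186 of 285 of 300 to 1000 nt were lower (65.3%), of which 130 were lower by all 3 tools and with RLE factors, and 163 were lower with RLE factors alone. In the same level range, 265 of 880 transcripts of 1000 to 2000 nt (30.1%), 344 of 2480 of 2000 to 4000 nt (13.9%), 305 of 2388 of 4000 to 8000 nt (12.8%) and 94 of 565 of 8000 nt or more (16.6%) were lower. Transcripts with whole counts were also called lower more often, at 424 of 3789 (11.2%), against 1000 of 30907 (3.24%) for those with fractional counts. Transcripts with whole counts were shorter as well, with a median length of 1925 nt against 2910 nt.

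**Figure D4:**
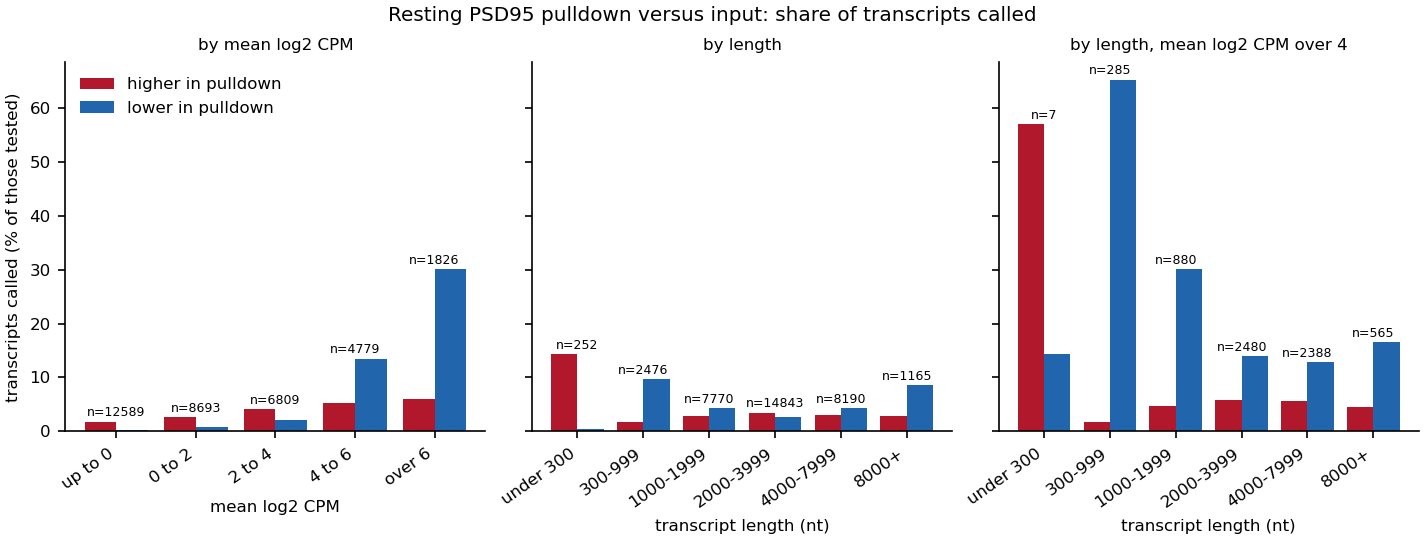
Percent of tested transcripts called higher (red) or lower (blue) in the resting PSD95 pulldown than in input, by mean log2 CPM over the 8 libraries (left), by transcript length in nt (middle) and by length among transcripts above 4 on the log2 CPM scale (right). The numbers over the bars are transcripts tested. The tallest bar is the 65.3% called lower among the 285 abundant transcripts of 300 to 1000 nt, and the class under 300 nt on the right holds 7 transcripts.

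The length classes of the resting PSD95 pulldown were set against the same classes in the other comparisons. For 300 to 1000 nt the mean over 4 pairs was -0.49 ± 0.13 in depolarized PSD95 and -0.49 ± 0.09 in resting Pan, and for under 300 nt it was 1.54 ± 0.49 and 1.15 ± 0.43 (SD, n = 4 each). The difference itself, PSD95 minus Pan at rest, was -0.03 ± 0.09 for 300 to 1000 nt and 0.57 ± 0.67 for under 300 nt, the second being above 0 in 3 of 4 pairs. Exact sign-flip p-values of these 2 were 0.625 and 0.25, and all 6 classes had an adjusted p of 1. Depolarized minus resting PSD95 gave 0.03 ± 0.14 and -0.18 ± 0.35, with adjusted p-values of 0.9 and 0.75. The class of 4000 to 8000 nt was above 0 in 4 of 4 pairs in this difference, at 0.05 ± 0.02, with an exact sign-flip p of 1 in 8 and an adjusted p of 0.75. With 4 pairs no class could have passed 0.05.

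The 2 transcripts that rose with the smallest p under the naming rule were uc008gfj.2 (6982 nt) and uc008nqd.1 (5864 nt). uc008gfj.2 had 5221, 4378, 5360 and 4111 CPM in the pulldowns of replicates 1 to 4, against 2036, 1842, 3096 and 2122 CPM in their inputs. The groups did not overlap, and input 3 stood above the other inputs. The pair log2 ratios were 1.36, 1.25, 0.79 and 0.95, with a mean of 1.09 ± 0.26 (SD, n = 4), while the weighted fit gave 1.27 ± 0.04 (SE), at an adjusted p by limma of 1.0e-15. Here and for the other named transcripts, the SE and p of the fit rest on a spread estimated over all 32 libraries. They do not measure the spread of the 4 pairs. The call was lost without the replicate block (limma adjusted p = 0.914) and with the states of the descriptions (0.0727), while the fitted value was 1.29 and 1.32. The same transcript averaged 5737 CPM ± 1135 in depolarized PSD95 pulldowns and 2525 ± 441 in their inputs, and 5540 ± 767 in resting Pan pulldowns and 2388 ± 283 in theirs (SD, n = 4 each).

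uc008nqd.1 had 669, 298, 254 and 326 CPM in the pulldowns, against 243, 145, 173 and 169 CPM in the inputs. Replicate 1 was highest in both fractions, and the lowest pulldown lay just above the highest input. The mean of the pairs was 1.00 ± 0.37 (SD, n = 4), and the fit gave 1.29 ± 0.11 (SE) with an adjusted p by limma of 5.2e-08, or 0.142 without the replicate block, where the fitted value was 1.39. The depolarized PSD95 and resting Pan pairs had means of 0.86 ± 0.14 and 0.89 ± 0.16 (SD, n = 4 each).

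The 2 transcripts that fell under the same rule were uc007ihs.1 (8239 nt) and uc007aoj.2 (17210 nt). uc007ihs.1 had 1635, 1438, 931 and 1576 CPM in the pulldowns, against 2314, 1613, 1653 and 2449 CPM in the inputs. Pulldown 3 was lowest, and the groups overlap by 1 library. The mean of the pairs was -0.53 ± 0.28 (SD, n = 4), and the fit gave -0.54 ± 0.03 (SE), at an adjusted p by limma of 9.7e-12. Without the filter on low counts the fitted value was -0.18 and the limma adjusted p 0.215.

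uc007aoj.2 had 1170, 1221, 787 and 1316 CPM in the pulldowns, against 2152, 1784, 1490 and 2064 CPM in the inputs, and the groups did not overlap. The mean of the pairs was -0.75 ± 0.18 (SD, n = 4), and the fit gave -0.81 ± 0.05 (SE), at an adjusted p by limma of 1.5e-10. The pairs had a mean of -0.85 ± 0.21 in depolarized PSD95 and -0.79 ± 0.13 in resting Pan. All 4 named transcripts carried fractional counts, so part of each value is an estimate of how reads were split. Fitted on the 8 libraries alone with the replicate block, the 4 had limma adjusted p-values from 0.000898 to 0.00465. Fitted on the 8 libraries alone without the block, none of the 4 was called, with limma adjusted p-values from 0.0505 to 0.189.

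**Figure D5:**
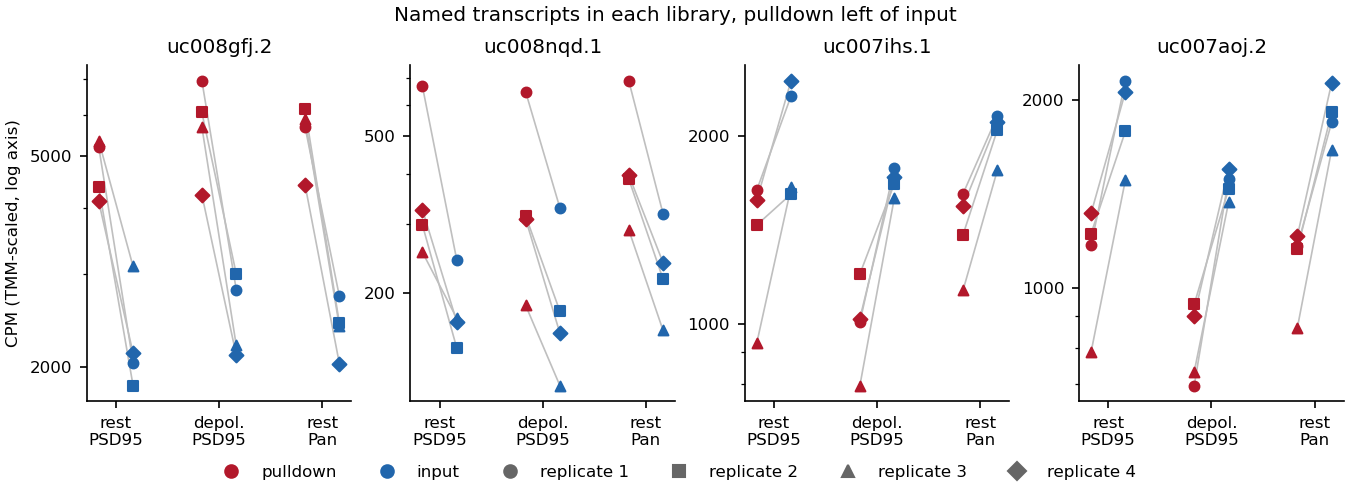
TMM-scaled CPM (vertical log axes) of the 4 named transcripts in each library of resting PSD95, depolarized PSD95 and resting Pan, with pulldowns in red to the left of their inputs in blue. Symbols mark replicates and grey lines join a pulldown to its input. In resting PSD95, uc008gfj.2 and uc008nqd.1 are above their inputs in 4 of 4 pairs, and uc007ihs.1 and uc007aoj.2 are below them in 4 of 4 pairs. The naming rule required this.

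Of the 3 dominant transcripts, uc012eno.1 (334 nt) had a lower share in the pulldown in 4 of 4 pairs but did not pass the test. It took 0.976%, 0.596%, 0.336% and 0.919% of pulldown reads, against 3.18%, 1.41%, 10.0% and 10.9% of input reads, and the groups did not overlap. Its fitted log2 difference was -2.39 ± 0.92 (SE), with a limma adjusted p of 0.1251. The fitted differences of uc009sgd.1 and of uc033jng.1 (123 nt) were 0.01 ± 0.80 and 0.05 ± 0.97 (SE), and their adjusted p-values by limma were 0.996 and 0.985.

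Depolarized PSD95 pulldowns had 1975 transcripts higher (5.69%) and 2458 lower (7.08%) than their inputs, and resting Pan pulldowns 1710 higher (4.93%) and 1569 lower (4.52%), by limma among the same 34696. With RLE factors these splits were 2866 higher and 1559 lower for depolarized PSD95, which turns the balance, and 1959 higher and 1337 lower for resting Pan. Of the 1091 higher transcripts of the resting PSD95 comparison, 588 were also higher in depolarized PSD95, which is 53.9% of the resting list and 29.8% of the depolarized one. With resting Pan 559 were shared, 51.2% and 32.7% of the lists. Of the 1424 lower ones, 1119 were shared with depolarized PSD95 (78.6% and 45.5%) and 964 with resting Pan (67.7% and 61.4%). There were 393 higher and 246 lower transcripts called in neither of the other comparisons, and 1 was called in the opposite direction after depolarization. Being called in 1 comparison and not in another does not show a difference, which was tested directly.

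Few transcripts passed those tests of the difference. With no difference at all, a share of about 0.05 of the 34696 tested would have an unadjusted p under 0.05. The unadjusted counts below are therefore not counts of differences. Depolarized minus resting PSD95 gave 8 lower (0.0231%) and 0 higher transcripts by limma, and 2337 in either direction had an unadjusted p under 0.05. edgeR called 0, with 1485 at an unadjusted p under 0.05, and DESeq2 called 481. PSD95 minus Pan at rest gave 2 higher (0.00576%) and 0 lower by limma, and 2104 in either direction had an unadjusted p under 0.05. edgeR called 0, with 1421 at an unadjusted p under 0.05, and DESeq2 called 498. Without replicate 1 limma called 0 in both tests. For the other transcripts, a difference of the resting PSD95 pulldown effect from the depolarized one or from whole-neuron labelling was not shown by limma.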

How the data were processed

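The authors quantified stranded, ribosomal RNA-depleted libraries with salmon against UCSC knownGene transcripts of mm10. The version of salmon is not given in the sources used here. Deposited files hold expected counts, in which ambiguous reads are split among transcripts, and TPM values, which were not tested. Lengths were taken as deposited. Members, groups and lists were chosen with earlier results of these data known.

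Expected counts were rounded and fitted over all 32 libraries with limma 3.58.1 (voomWithQualityWeights, R 4.3.3), TMM factors and filterByExpr (edgeR 4.0.16), with terms for group and replicate number and Benjamini-Hochberg adjustment at 0.05. The filter, weights and batch term are of the kinds the study used, but the study grouped pulldowns and kept 1 transcript per gene, where every transcript model and the inputs were fitted here. Inputs and pulldowns of a number came from the same lysate by the study's methods, and replicates were biological. Residuals of the 4 pulldown and input pairs correlated with r of 0.07 to 0.116 (mean 0.095, against -0.03 for different numbers). No library was a duplicate of another, with a smallest chi-square per degree of freedom of 40.4. Pair ratios were taken on log2 CPM after adding a prior count of 2. Named transcripts were the called ones of smallest p that averaged 1 or more on the log2 CPM scale, differed by 0.5 or more on the log2 scale and kept their direction in 4 of 4 pairs, limited to 2 in each direction because no gene names were at hand. Alternatives were DESeq2 1.42.0, the quasi-likelihood test of edgeR, RLE factors, no weights, no filter, a mean CPM of 5, other blocks, the states of the descriptions, leaving out the 3 transcripts above 1% of reads, each replicate or other groups, and other count minimums. Figures used matplotlib 3.10.9 in Python 3.11.15.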

Additional observations from a re-analysis of the deposited data

Results flagged for a closer look

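Differences between groups were called for a few transcripts. The resting PSD95 pulldown effect differed from the depolarized one for 8 transcripts by limma, all lower after depolarization, and from the resting Pan one for 2, both higher with PSD95. With the states of the descriptions the first test called 0, and the second called 2 other transcripts, both lower with PSD95. The plain pair means had the sign of the fit for 7 of the 8 and for 1 of the 2. uc008gfj.2 was called in both tests, with a fitted log2 difference of -0.38 ± 0.06 (SE) for depolarized minus resting (limma adjusted p = 0.0261) and of 0.37 ± 0.05 for PSD95 minus Pan (limma adjusted p = 0.00159). Its plain pair values went the other way in both, with means of 0.09 ± 0.35 (above 0 in 2 of 4 pairs) and -0.12 ± 0.33 (above 0 in 1 of 4 pairs; SD, n = 4 each). The part of the weights of the fit in these signs was not tested. None of 53 groups of 4 values held a library or pair outlying from the other 3 (0 found; chance gives about 1 in 20).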

How the results depend on the processing

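For the resting PSD95 pulldown against input, 2515 transcripts were called. edgeR called 1086. The count was 734 with no replicate block, 1609 with a block per lysate, 1495 for the 8 libraries alone with the block, 44 for them without it, 1564 without the libraries over 50% uc009sgd.1 (chosen after seeing the data) and 287 to 1667 without each replicate in turn. After depolarization 1517 were called by edgeR and 2721 without the block, and 903 to 3116 without each replicate. For resting Pan the counts were 621 by edgeR, 1025 without the block, 2072 with a block per lysate and 474 to 2119 without each replicate.

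The test of depolarized minus resting called 0 by edgeR, 481 by DESeq2, 1 without quality weights, 46 without the filter, 1 at a mean CPM of at least 5, 0 without the block, 26 with a block per lysate, 0 with the states of the descriptions, 1 without the 3 dominant transcripts, 3 without the libraries over 50% and 0 to 5 without each replicate. PSD95 minus Pan called 2, both higher, and 0 by edgeR, 498 by DESeq2, 1 without quality weights, 17 without the filter, 0 at a mean CPM of at least 5, 0 without the block, 12 with a block per lysate, 2 with the states of the descriptions (both lower, 0 shared with the 2 above), 1 without the libraries over 50% and 0 to 2 without each replicate.

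The classes of 1000 to 2000 nt and 4000 to 8000 nt turned to 0.013 and -0.029 with no count minimum, and 8000 nt or more to 0.12 with whole counts only. With dominant transcripts kept, the difference in read-weighted median length was 0.0 nt and in rarefied transcripts -107.4. Without replicates 1 to 4 in turn the difference in the share of the 10 most abundant ran from -0.33 to 1.22 percentage points. The 4 named transcripts kept their direction in 68 of 68 alternative values and lost the call in 8, and the other changes leave the classes under 1000 nt on their side of 0. The named transcripts were chosen for a small p and 1 direction in these libraries, so their kept direction is no separate support. Depth outside the dominant transcripts, 632209 counts in pulldown 3, limits what low transcripts can show, and the cause of the changes was not tested.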

Other observations

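Some transcripts were seen in only 1 fraction. In all, 14248 transcript models had 0 counts in all 4 resting PSD95 inputs, of which 3544 had a count in a pulldown, 1477 reached 10 counts in at least 1 pulldown and 5 reached 10 counts in all 4. Conversely, 13642 had 0 counts in all 4 pulldowns, of which 2938 had a count in an input, 1250 reached 10 counts in at least 1 input and 9 reached 10 counts in all 4. Of the first set 1879 passed the filter and 94 were called higher in the pulldown, beside 3.14% of all transcripts tested. Of the second 1547 passed and 19 were called lower, beside 4.10%. The direction of these calls was set by the choice of each set and is not a result. These transcripts are part of the counts of calls. Their fitted values depend on the small offset that the fit adds to counts before the log, and are no bound.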
